A study of Caenorhabditis elegans with 4 samples.

Results

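The binding sites of the transcription factor DVE-1 on chromosome V of Caenorhabditis elegans are described here. They are all peaks that the deposited combined list places on chromosome V, with no other choice, and number 730 of 3702 peaks (19.7% of the list). The same chromosome held 307 peaks in the list of ChIP replicate 1 and 437 in that of ChIP replicate 2. Chromatin immunoprecipitation and sequencing (ChIP-seq) was run on L4 hermaphrodites grown at 20 °C, with 2 ChIP and 2 input libraries. All libraries came from 1 strain, OP398, which has the mutation unc-119(ed3) on III and the transgene wgIs398, made by bombardment. The transgene joins dve-1 to a tag with GFP, written dve-1::TY1EGFPFLAG, and carries unc-119(+) beside it. Antibodies against GFP recovered the tagged protein, so the sites are those of the fusion protein in whole animals. No second strain, stage or untagged control enters, and the input libraries were not analysed here. Peaks are given by their borders in WormBase WS180 coordinates and by the authors' q-value. Read depth is unknown, and since the labels name no separate cultures, the spread between the replicates may be technical.

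DVE-1 is a homeodomain protein related to the mammalian SATB chromatin organisers. It is known for moving into intestinal nuclei when mitochondria are stressed, where it works with the ubiquitin-like protein UBL-5 and the factor ATFS-1 to switch on genes such as the mitochondrial chaperone hsp-60. Worm autosomes have a gene-rich centre with many broadly used genes, and ends (arms) that recombine more, hold more repeats and young gene families, and are associated with the nuclear lamina. Chromosome V is the longest chromosome of the worm and is known for its large families of chemoreceptors, the membrane receptors for smells and tastes. In the RefSeq annotation of the assembly WBcel235, it holds 888 of 1308 genes named as chemoreceptors of the sr and str families (67.9%) and 167 of 269 nuclear hormone receptor genes of the nhr family (62.1%). The same annotation places 71 of 170 fbxa genes (41.8%), which encode F-box proteins, and 85 of 239 clec genes (35.6%), which encode proteins with C-type lectin domains, on V. These are counts of whole chromosomes in another assembly, and no peak was assigned to a gene.

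Sites of DVE-1 were concentrated in the middle of chromosome V and sparse towards both of its ends. The central 50% of the chromosome, V:5226388-15679162, held 483 of the 730 combined peaks (66.2%), or 46.2 per Mb. The left end held 123 peaks and the right end 124, each in 25% of the length, which is 23.5 and 23.7 per Mb. Density in the centre was 1.96 times that in the ends (95% interval 1.46 to 2.61, quasi-Poisson F test, n = 23 windows of at most 1 Mb, p = 6.87e-05). The replicate lists gave 2.27 for replicate 1 and 2.26 for replicate 2. Replicate 1 had 20.4 peaks per Mb in the centre, against 8.04 in the left end and 9.95 in the right end. Replicate 2 had 29.0 peaks per Mb in the centre, against 13.4 in the left end and 12.2 in the right end. The ends thus had nearly equal densities in the combined list, with the right end higher in replicate 1 and the left end higher in replicate 2, and no direction is read from this.

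**Figure D1:**
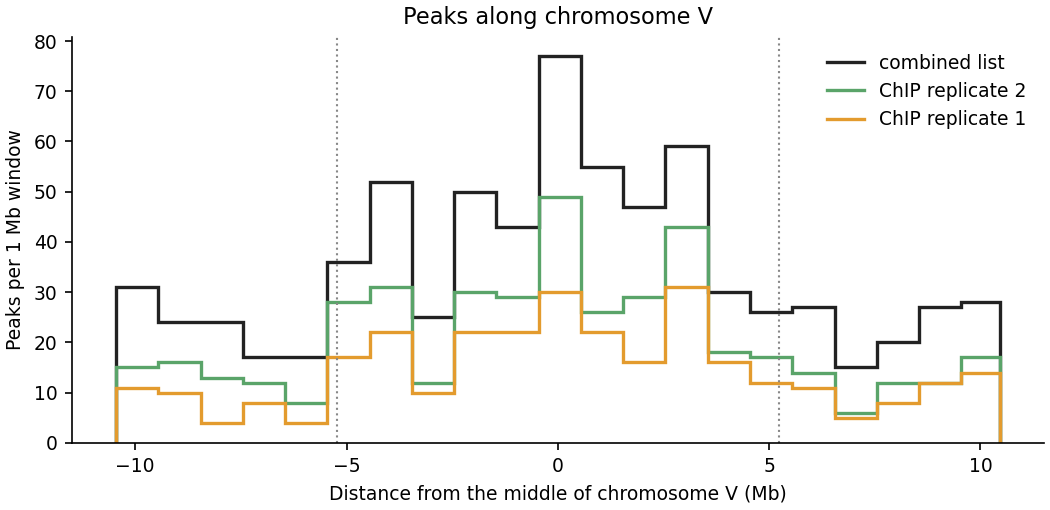
Number of peaks in consecutive 1 Mb windows (vertical axis) against distance from the middle of chromosome V in Mb (horizontal axis), for the combined list and for ChIP replicates 2 and 1; the last window is shorter, and dotted lines bound the central 50%. The window of 77 combined peaks lies at the middle, and the window of 25 peaks is a dip inside the centre in all 3 lists.

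In windows of 1 Mb the combined list ran from 15 to 77 peaks, with a median of 28.5 over 20 full windows. The densest was V:10000001-11000000, at the middle of the chromosome, with 77 combined peaks, 30 peaks of replicate 1 and 49 of replicate 2. The next was V:13000001-14000000 with 59 combined peaks, 31 of replicate 1 and 43 of replicate 2, which made it the densest window of replicate 1. The sparsest was V:17000001-18000000 in the right end, with 15 combined peaks, 5 of replicate 1 and 6 of replicate 2. The 11 full windows of the centre had a median of 47 peaks, the 5 of the left end had 24 and the 4 of the right end 23.5. Within the centre, V:7000001-8000000 had only 25 combined peaks, although its neighbours on either side held 52 and 50. The same window held 10 peaks against 22 on each side in replicate 1, and 12 against 31 and 30 in replicate 2. These counts are no independent support for the dip, which was picked in the combined list. All V peaks of replicate 1, and all but 8 of replicate 2, overlapped a combined peak. Window counts of the replicates followed each other over the 20 full windows (Spearman rho = 0.913), a description of lists that share the strain and the peak caller. The variance of the combined counts was 7.99 times their mean on V, against 7.41 on I, 6.90 on II, 2.88 on III, 4.76 on IV and 3.35 on X, with no test of the difference.

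Sites of the densest window had about the widths of V as a whole. Its 77 peaks had a median width of 456 bp, against 505.5 bp for all V peaks, and the widest was 2548 bp. They covered 53.0 kb of the window (5.30%), and 16 of them were wider than 1000 bp (20.8%, against 19.7% of all V peaks). Peaks lay throughout it, with 3 to 12 in each of its 10 windows of 100 kb. Its strongest peak, V:10936669-10939216, ranked 14 on the chromosome, and 21 of its peaks belonged to the strongest 183 of V. Of its 77 peaks, 28 overlapped peaks of both replicates and 27 overlapped none (36.4% in both).

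At 100 kb the combined list had a median of 3 peaks per window, and 25 of 209 full windows were empty (12.0%). Of the empty windows, 10 of 52 were in the left end, 8 of 52 in the right end and 7 of 105 in the centre. Of the 9 windows with at least 10 peaks, 8 were in the centre, 1 was in the right end and the left end had none. The fullest was V:6200001-6300000 with 13 peaks. It held V:6220672-6230061 and V:6275959-6278713, which ranked 2 and 5 of all V peaks, and 11 weaker ones, the best of which ranked 135. Of these 13 peaks 5 were in both replicates, 3 in replicate 2 alone and 5 in neither. V:6400001-6500000 and V:10000001-10100000 followed with 12 peaks each, and they held no broad site: the widest peaks there were 1150 and 1860 bp. The next windows, with 11 peaks each, were V:10800001-10900000, V:13000001-13100000 and, close to the right tip, V:20700001-20800000. The last of these covered more sequence than the other two, 16838 bp against 7010 and 10810 bp, and it contained the site of 4942 bp at V:20773309-20778250.

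The chromosome had a long stretch in its right end where neither replicate had a peak. It ran for 842.0 kb from 16817087 to 17659132 in replicate 1, and the longest gap of replicate 2 had nearly the same borders, from 16817069 to 17659138. The combined list had 6 peaks in it, which were in neither replicate by the choice of the stretch. The q-values of these 6 ran from 1.34e-06 at V:16965658-16966003 to 0.000144 at V:17267454-17267911, and their ranks among the 730 peaks from 449 to 683. All 286 V peaks in neither replicate had a median q-value of 2.26e-05, so weak values here are not particular to the stretch. The longest stretch with no peak in either replicate was 526.3 kb on II, 228.9 kb on III, 345.3 kb on IV and 615.2 kb on X. These are the most extreme gaps of lists of different density, and no test was made of their lengths. The lists do not give the number of reads over this stretch.

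**Figure D2:**
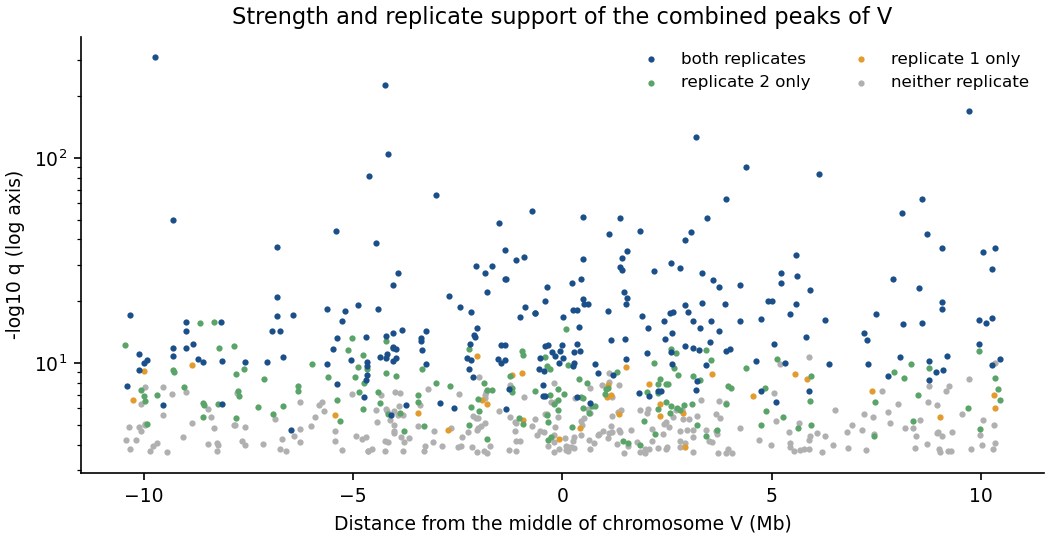
Every combined peak of chromosome V by distance from the middle of the chromosome in Mb (horizontal axis) and by -log10 of its q-value on a log axis (vertical axis), coloured by the replicate lists that held it. The 2 highest points are the sites at V:723751-732021 in the left end and V:6220672-6230061 in the centre; grey points, in neither replicate, lie at the bottom along the whole chromosome.

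The 10 strongest sites were spread over the regions of V in about the shares of all its peaks. Among the 10 combined peaks of V with the smallest q-values, 7 were in the centre, 1 in the left end and 2 in the right end, and all 10 overlapped peaks of both replicates. Of the 73 strongest, 53 were in the centre, 5 in the left end and 15 in the right end. The strongest 25% of the combined list included 16.3% of the left-end peaks, 22.6% of those in the centre and 23.4% of those in the right end. Of all V peaks, 66.2% were in the centre, 16.8% in the left end and 17.0% in the right end. The strongest were not tested against these shares. The site that led the chromosome and the whole list, V:723751-732021 (8271 bp, q = 5.30e-312), is isolated in the left end, 46868 bp from the peak before it and 41278 bp from the next. In replicate 2 it was 1 peak of 8207 bp (q = 1.49e-170). In replicate 1 it was called as 2 adjoining peaks of 4632 bp (q = 7.92e-88) and 3208 bp (q = 5.62e-43), and together these covered 94.8% of the combined peak. Here and below, q-values of different lists are given side by side as the authors' values, and no change is read from them, since the depth behind each list is unknown.

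The site ranked 2 on V, V:6220672-6230061, was the widest of the chromosome at 9390 bp (q = 8.41e-227). Replicate 2 had it as 1 peak of 9450 bp (q = 1.40e-129), and replicate 1 as a main peak of 7791 bp (q = 8.25e-97) with a side peak of 1295 bp (q = 1.09e-08). A weaker peak of 833 bp started 238 bp beyond its right border and was found in replicate 2 alone. V:6275959-6278713, ranked 5, lay within 50 kb of it and was called alike in all 3 lists, with widths of 2755 bp (q = 1.74e-104), 2762 bp in replicate 1 (q = 1.68e-53) and 2939 bp in replicate 2 (q = 2.46e-61). Near the right tip V:20157248-20160408, ranked 3, was 3161 bp wide (q = 4.07e-170), with 1 peak of 3167 bp in replicate 2 and peaks of 2223 and 725 bp in replicate 1. V:16592075-16595789, ranked 7, stood alone in the right end, over 50 kb from either neighbour, at 3715 bp (q = 1.00e-83), 3639 bp in replicate 1 (q = 2.24e-36) and 3794 bp in replicate 2 (q = 4.12e-48).

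Several broad sites of the centre were called as different numbers of peaks in the lists. V:13652100-13659572, ranked 4 (7473 bp, q = 4.25e-127), matched 3 peaks of replicate 1, the largest of 3372 bp (q = 2.35e-45), and 2 of replicate 2, the larger of 4856 bp (q = 2.46e-58). V:14847080-14852315, ranked 6 (5236 bp, q = 3.94e-91), matched 3 peaks of replicate 1 and 2 of replicate 2, which covered 62.8% and 73.3% of it. V:5838452-5846283, ranked 8 (7832 bp, q = 2.85e-82), also matched 3 and 2 peaks. Those of replicate 1 covered only 43.8% of it, and those of replicate 2 covered 89.6%. V:14362579-14369121, ranked 10 (6543 bp, q = 7.84e-64), was a single peak of 6793 bp in replicate 2 (q = 5.96e-38). In replicate 1 it was 3 peaks of 2648, 1624 and 1423 bp, with q-values from 4.25e-10 to 7.51e-09. By contrast V:7431866-7436203, ranked 9 (4338 bp, q = 1.81e-66), was 1 peak in each replicate, of 4254 bp in replicate 1 (q = 5.67e-26) and 5476 bp in replicate 2 (q = 1.51e-35). Over the whole chromosome, 19 combined peaks overlapped more than 1 peak of replicate 1, and 18 overlapped more than 1 of replicate 2.

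Peaks of V were narrow, with a median width of 505.5 bp and an interquartile range of 371.5 to 837.8 bp. Together they covered 591.9 kb, or 2.83% of the chromosome. The 144 peaks wider than 1000 bp made up 19.7% of the V peaks, against 19.8% in the whole combined list, and they held 50.6% of the covered bases. There were 12 peaks over 4000 bp, of which 9 lay in the centre, 1 in the left end and 2 in the right end, and all 12 were in both replicates. The 10 widest covered 65.8 kb, and 6 of them were also among the 10 strongest. The other 4 were V:8934154-8940040 (5887 bp, ranked 18 by q-value), V:18572446-18577896 (5451 bp, ranked 13), V:20773309-20778250 (4942 bp, ranked 28) and V:11818363-11823130 (4768 bp, ranked 40). The replicates covered V:18572446-18577896 only in part, 44.7% of it in replicate 1 and 45.8% in replicate 2. Both of them called V:11818363-11823130 nearly whole, with 4695 bp in replicate 1 and 4640 bp in replicate 2.

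Wide peaks tended to be strong, though 33 of the 144 over 1000 bp were in neither replicate and 94 were in both. Across the 730 peaks, width and q-value had a Spearman rho of -0.501, as a description of values that share the peak caller. The 50 strongest peaks had a median width of 2459.5 bp, and all 50 were in both replicates. Of these 50, 8 were no wider than 1000 bp, and the narrowest was V:16040396-16040808 (413 bp, q = 3.33e-34, ranked 32), called at 323 bp in replicate 1 and 376 bp in replicate 2. The narrowest peak of the chromosome, V:10258072-10258090, was 19 bp wide (q = 0.000201) and in neither replicate. It is the only V peak under 200 bp, and the next narrowest was 231 bp.

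Both replicates supported 254 of the 730 V peaks (34.8%, exact 95% interval 31.3 to 38.4), against 35.0% in the whole combined list. Another 158 were in replicate 2 alone (21.6%, against 20.4% in the whole list) and 32 in replicate 1 alone (4.38%, against 4.54%). The remaining 286 overlapped no peak of either (39.2%, interval 35.6 to 42.8), against 40.1% in the whole list. These intervals cover counting error only. Seen from the replicates, 276 of the 307 V peaks called in replicate 1 recurred in replicate 2 (89.9%, interval 86.0 to 93.0). Over all chromosomes the share was 88.9%. Conversely, 268 of the 437 called in replicate 2 recurred in replicate 1 (61.3%, interval 56.6 to 65.9), against 62.9% over all chromosomes. All 307 peaks of replicate 1 were in the combined list, and so were 429 of the 437 of replicate 2. The 8 others were 289 to 718 bp wide, with q-values from 1.02e-06 to 0.000159, and were absent from replicate 1 too. For the 240 V peaks that paired 1 to 1 between replicates, starts and ends each differed by a median of 44 bp, widths had a Spearman rho of 0.821 and q-values of 0.685.

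**Figure D3:**
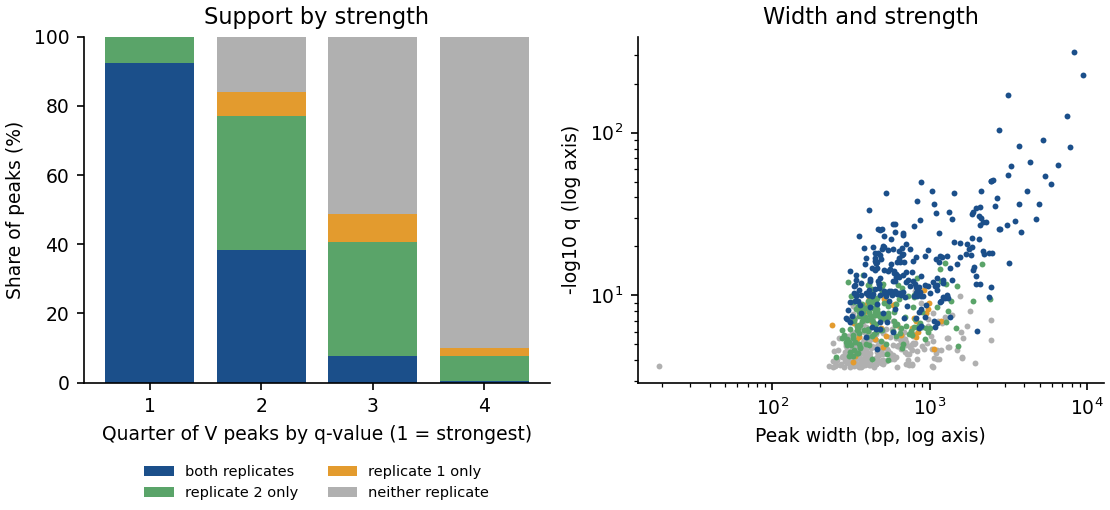
Left, share of the combined V peaks (vertical axis, percent) held by both replicates, 1 replicate or neither, in 4 groups ranked by q-value; right, -log10 of the q-value (vertical axis) by width in bp (horizontal axis) for each of the 730 peaks, both on log axes. Support by both replicates is 92.3% in the strongest group and 0.549% in the weakest, and all points beyond 4000 bp are in both replicates.

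Support followed strength closely along the chromosome. Among the strongest 183 peaks of V, 169 were in both replicates (92.3%, exact interval 87.5 to 95.8), 14 in replicate 2 alone and none in replicate 1 alone or in neither. In the next 183, with q-values from 5.01e-12 to 1.07e-07, 70 were in both (38.3%, interval 31.2 to 45.7) and 71 in replicate 2 alone. In the following 182 peaks 14 were in both (7.69%) and 93 in neither (51.1%). In the weakest 182, 1 was in both (0.549%) and 164 in neither (90.1%). Support also rose with width: the share in both replicates was 18.5% for the 357 peaks of at most 500 bp, 41.0% for the 229 above that and up to 1000 bp, 51.6% for the 95 up to 2000 bp and 89.2% for the 37 up to 4000 bp. The share in neither did not fall at each step of width, at 52.4%, 28.8%, 32.6% and 5.41% in these classes. These are descriptions, since strength, width and overlap depend on each other.

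The first V peak in order of strength that was not in both replicates ranked 113. It was V:2122289-2123533 (1245 bp, q = 1.43e-16), in the left end, and replicate 2 had it at V:2122612-2123542 (931 bp, q = 9.70e-12), the strongest V peak of that list with no partner in replicate 1. The next such peaks of replicate 2 were V:6230445-6231149 (705 bp, q = 5.06e-11), beside the widest site, and V:8161-9286 (1126 bp, q = 1.11e-09), at the left tip. The site at the tip is the first V peak of the combined list too, V:8080-9267. Of the 31 V peaks of replicate 1 without a partner in replicate 2, the 3 strongest were V:11976734-11977154 (421 bp, q = 1.80e-08), V:9489042-9489977 (936 bp, q = 1.86e-07) and V:11615888-11617135 (1248 bp, q = 1.04e-06). The strongest combined peak in neither replicate, V:16351864-16352675, ranked 198 (812 bp, q = 2.10e-11). V:20780447-20781744 (1298 bp, q = 1.11e-10) and V:15658516-15660084 (1569 bp, q = 1.17e-10) followed it. A list that lacks a site has no call there, and DVE-1 may still bind it below the caller's limit. The last combined peak of the chromosome, V:20905179-20905533, was in replicate 2 alone, and no list had a V peak beyond position 20905550.

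Support did not differ detectably along the chromosome. In the centre 175 of 483 peaks were in both replicates (36.2%), against 79 of 247 in the ends (32.0%), a difference of 4.25 percentage points (odds ratio 1.21, 95% interval 0.855 to 1.71, quasi-binomial F test over 23 sets of peaks in 1 Mb windows, p = 0.266). The share was 30.1% in the left end (37 of 123 peaks, exact interval 22.1 to 39.0) and 33.9% in the right end (42 of 124, interval 25.6 to 42.9). Median widths were 498 bp in the left end, 523 bp in the centre and 443.5 bp in the right end.

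Neighbouring sites of V lay a median of 12058 bp apart, with an interquartile range of 2277 to 36133 bp. Of the 729 gaps 105 were under 1000 bp (14.4%), against 14.8% in the whole combined list, and the shortest was 209 bp. No gap of the combined list was shorter than 202 bp on any chromosome. The median gap was 9162 bp in the centre, 17930 bp in the left end and 23510 bp in the right end. There were 43 gaps over 100 kb, 14 of them in the centre, 13 in the left end and 16 in the right end. The longest was 311.0 kb in the left end, from 2881966 to 3193012. It was followed by 296.2 kb in the right end, from 16966004 to 17262169, and 273.0 kb in the left end, from 2327576 to 2600618. None of these held a peak of either replicate. This was nearly fixed in advance, since all replicate peaks of V except 8 of replicate 2 overlapped a combined peak.

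Gaps under 1000 bp joined 194 V peaks (26.6%) into 89 runs, of which 16 had 3 peaks and the others 2. Runs held 28.5% of the peaks on II, 30.4% on III, 26.6% on IV and 21.3% on X. Runs of at least 3 peaks numbered 17 on II, 23 on III, 17 on IV and 8 on X. No run on V was longer than 3 peaks. The longest had 4 on II, 5 on III, 7 on IV and 4 on X, single extremes that were not tested. Of the 16 runs of 3, 15 were in the centre and 1, V:1153166-1158829, in the left end. The centre also held 66.2% of all V peaks and 82 of the 105 gaps under 1000 bp. The part of density in the place of the runs was not tested. Among the 16 runs of 3, the one with the strongest member was V:11817405-11825912, with peaks of 247, 4768 and 2461 bp over 8508 bp. Its strongest peak ranked 15 on V (q = 1.51e-51) and is not the widest. V:13369400-13374971 followed, with peaks of 1057, 1113 and 2677 bp and a strongest q-value of 3.07e-40. V:9094054-9098854 was the only run of 3 with all members in both replicates. V:10096081-10098763 and V:11801259-11803821 had no member in both. Peaks in runs were in both replicates in 89 of 194 cases (45.9%, exact interval 38.7 to 53.2), against 165 of 536 (30.8%, interval 26.9 to 34.9) for peaks alone. Peaks in runs were also wider, with a median of 686 against 467 bp, and stronger, with a median q-value of 7.21e-09 against 2.69e-07. More of them lay in the centre, 76.8% against 62.3%. The part of width, strength or position in the difference in support was not tested.

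**Figure D4:**
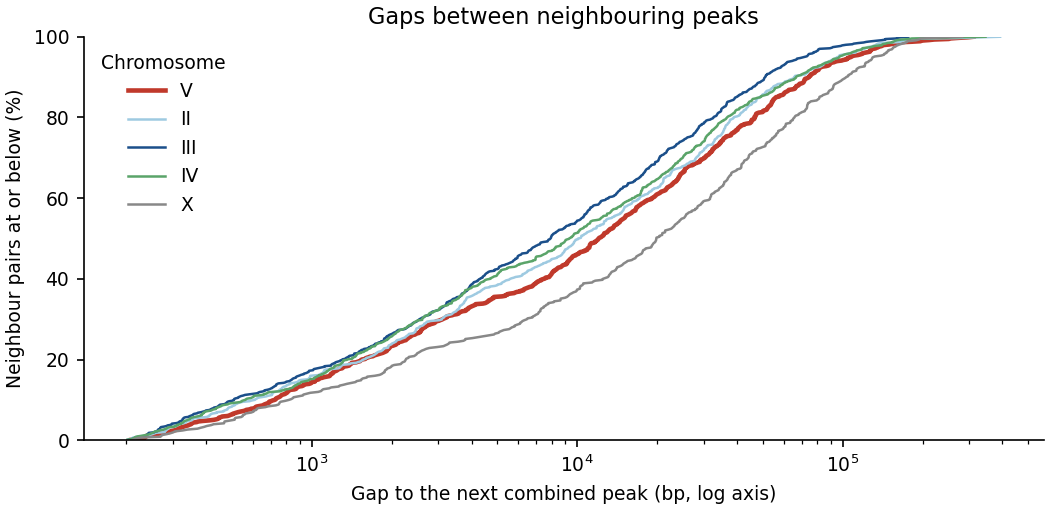
Cumulative share of neighbouring combined peaks (vertical axis, percent of pairs) by the length of the gap between them in bp on a log axis (horizontal axis), for chromosomes V, II, III, IV and X. The curve of V lies between those of II and X through the middle of the range, with medians of 12058 bp on V, 10194.5 bp on II and 19880.5 bp on X.

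Chromosome V was then set against II, III, IV and X, with chromosome I not compared, and the p-values of each measure were adjusted over its 4 comparisons by the Benjamini-Hochberg method. On V there were 34.9 combined peaks per Mb, against 38.6 on II, 51.1 on III, 40.5 on IV and 25.6 on X. Density on V was 0.684 times that on III (95% interval 0.529 to 0.884, quasi-Poisson F test, n = 35 windows, adjusted p = 0.0202). The ratio stayed below 1 with an adjusted p under 0.05 in both replicate lists. It was 0.905 against II (interval 0.670 to 1.22, n = 37 windows, adjusted p = 0.506) and 0.862 against IV (0.661 to 1.12, n = 39 windows, adjusted p = 0.353). Against X the ratio was 1.37 (1.02 to 1.82, n = 39 windows), which missed the threshold after adjustment (adjusted p = 0.0651). In the replicate lists alone, over the same n = 39 windows, it was 1.81 in replicate 1 (adjusted p = 0.00251) and 1.71 in replicate 2 (adjusted p = 0.00781).

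Counted per gene, the order of the chromosomes changed. Chromosome V has 4995 protein-coding genes in WBcel235 and had 14.6 combined peaks per 100 of them, against 17.1 on II, 26.6 on III, 21.6 on IV and 16.5 on X. V was thus below X per gene and above it per Mb. In the replicate lists V was above X per gene as well, at 6.15 against 5.24 in replicate 1 and 8.75 against 7.88 in replicate 2. These ratios use gene counts of whole chromosomes from another assembly and were not tested.

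The ratio of centre to end density was higher on V than on II, III, IV and X in the combined list, but none of these differences passed the test. The ratio of centre to end density on V was 1.67 times that on X (95% interval 1.09 to 2.58, interaction term of the quasi-Poisson model, n = 43 windows, adjusted p = 0.0816), 1.42 times that on III (0.989 to 2.05, adjusted p = 0.113), 1.23 times that on II (0.774 to 1.94, adjusted p = 0.433) and 1.15 times that on IV (0.806 to 1.64, adjusted p = 0.433). V had near-equal densities in its ends, 23.5 per Mb on the left and 23.7 on the right. On II the left end had 16.5 peaks per Mb and the right end 43.0, and on IV the left end had 35.7 and the right end 24.3. Replicate 2 alone put the excess over III (n = 39 windows) and over X (n = 43 windows) past the threshold, with an adjusted p = 0.0364 for each. Replicate 1 alone did not, with adjusted p = 0.127 for III (n = 39 windows) and 0.126 for X (n = 43 windows).

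**Figure D5:**
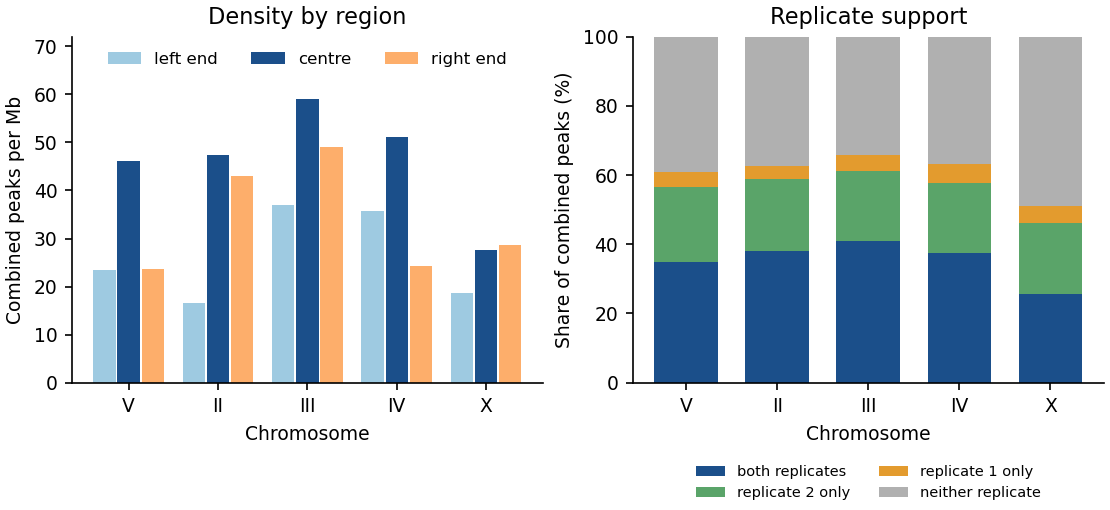
Left, combined peaks per Mb (vertical axis) in the left end, centre and right end of chromosomes V, II, III, IV and X; right, share of their combined peaks held by both replicates, 1 replicate or neither. The ends of V are nearly equal, at 23.5 and 23.7 per Mb beside 46.2 in the centre, and X has the smallest share in both replicates, 25.7% against 34.8% on V.

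Replicate support on V resembled that on II and IV and lay above that on X. The share of peaks in both replicates was 34.8% on V, against 25.7% on X, a difference of 9.07 percentage points (odds ratio 1.54, 95% interval 1.18 to 2.02, quasi-binomial F test over 39 windows, adjusted p = 0.00878). The share in neither was 39.2% on V, against 49.0% on X (difference -9.82 points, n = 39 windows, adjusted p = 0.00836). In the stronger 50% of the list neither call was kept: the difference in both replicates was 8.04 points (quasi-binomial F test, adjusted p = 0.0917) and that in neither was -1.70 points (adjusted p = 0.555). On V both shares changed with strength, so differences in the stronger 50% cannot be set against those in the whole list. V had a lower share in both than III, 34.8% against 40.8% (difference -6.03 points, quasi-binomial F test, n = 35 windows, adjusted p = 0.0493). That call was lost when 50% of both peaks had to overlap (-5.32 points, quasi-binomial F test, adjusted p = 0.0704). It was also lost in the stronger 50% of the list (-8.86 points, quasi-binomial F test, adjusted p = 0.0511). The share on V did not differ detectably from 38.2% on II (n = 37 windows, adjusted p = 0.280) or 37.4% on IV (n = 39 windows, adjusted p = 0.305).

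Wide peaks were a smaller share on V than on X, and no difference from II, III or IV passed the test. Peaks wider than 1000 bp made up 19.7% on V, against 29.5% on X (odds ratio 0.588, 95% interval 0.433 to 0.798, quasi-binomial F test, adjusted p = 0.00470), and the median width was 505.5 bp on V, against 672 bp on X. In replicate 1 alone the difference was -9.60 points and missed the threshold (adjusted p = 0.0985), and for peaks over 2000 bp it was -0.83 points (adjusted p = 0.754). A limit of 2000 bp leaves a smaller share on every chromosome, so the -0.83 points cannot be set against the difference for 1000 bp. Against II, III and IV, whose shares were 20.0%, 17.6% and 17.2%, the differences ran from -0.308 to 2.49 points, with adjusted p from 0.474 to 0.900. In replicate 1 alone the difference was 8.23 points against III (quasi-binomial F test, adjusted p = 0.0619) and 5.17 points against IV (adjusted p = 0.231), and in replicate 2 alone it was 2.26 points against III (adjusted p = 0.555) and 4.78 points against IV (adjusted p = 0.124). Neighbours under 1000 bp apart made up 14.4% on V, against 16.0% on II, 17.2% on III, 15.1% on IV and 11.8% on X, with adjusted p from 0.581 to 0.730. Against X the difference was 2.63 points, 7.06 points in replicate 1 alone (quasi-binomial F test, adjusted p = 0.106), 3.07 points in replicate 2 alone (adjusted p = 0.398) and 9.08 points for gaps under 5000 bp (adjusted p = 0.129). Gaps under 5000 bp were a larger share on both chromosomes, 35.5% on V and 26.4% on X. The 9.08 points thus cannot be set against the 2.63.

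Although V carried the strongest site of the list, strong sites were not in excess on it. It held 3 of the 10, 9 of the 50 and 18 of the 100 strongest combined peaks, next to its 19.7% of all peaks. The strongest 926 peaks of the combined list are 25% of it, and 158 of the 730 V peaks were among them (21.6%). The share was 27.7% on II, 27.3% on III and 27.3% on IV, which gives V minus each of them differences of -6.03, -5.67 and -5.62 points (quasi-binomial F test, adjusted p = 0.0356, 0.0362 and 0.0356). X had 21.3%, a difference of 0.36 points (n = 39 windows, adjusted p = 0.885). The calls were not kept in the replicate lists, where the differences ran from -3.31 to -0.51 points, or for the strongest 10% of the list, at -1.96, -2.48 and -2.25 points (quasi-binomial F test, adjusted p = 0.323 each). A limit of 10% leaves fewer peaks and a smaller share on every chromosome, so these last differences cannot be set against those for 25%. Over all 31 comparisons made, 9 passed when adjusted within a measure and 5 when adjusted over all of them. The 5 were the density in the centre against the ends of V, the density of V against III, and the shares in both, in neither and over 1000 bp of V against X.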

How the data were processed

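Members and measures were chosen with earlier results of these data known. Per the labels' protocols, worms were crosslinked with formaldehyde, chromatin was sonicated and immunoprecipitated with antibodies against GFP. Peaks were called with PeakSeq on WormBase WS180, per the file headers and source column. The value of each deposited peak is a q-value. The sources used here give neither the version and thresholds of the caller nor the aligner, nor do they say how the combined list arose or which input served which list. The number of reads behind a peak is unknown.

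All peaks were read as deposited, without a filter, and the 3 lists were matched by an overlap of at least 1 bp. Chromosome length was the highest peak end in any list. A peak was placed in a window or region by its midpoint. Numbers of peaks were compared by a quasi-Poisson model with the length of each window as offset, and shares by a quasi-binomial model over peaks grouped by 1 Mb window (statsmodels 0.14.6), with the dispersion kept at 1 or above. These windows carry the local spread, and neighbouring windows are still not independent. P-values are two-sided. Shares have exact Clopper-Pearson 95% intervals (scipy 1.17.1). The fits were tested on simulated peaks of V and III, with each window drawn independently. The simulation thus does not cover dependence between neighbouring windows. Figures were drawn with matplotlib 3.10.9 under Python 3.11.15. The alternatives were 500 kb windows, the stronger 50% of the list, each replicate list alone, another width, gap or strength limit, a stricter overlap, a narrower centre and Fisher's exact test. Sites named are the 10 strongest and 10 widest, the 3 strongest in neither or without a partner, the densest, emptiest and most distant windows and gaps, and the tips of the chromosome. Others, such as the 842.0 kb stretch, the first peak not in both replicates, the 19 bp peak and the 413 bp peak, were singled out after their values were seen. The gene table, in WBcel235, served to count genes per chromosome, and no sequence was used.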

Additional observations from a re-analysis of the deposited data

How the results depend on the processing

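Of 142 alternative values for the 31 comparisons, 113 kept their direction and side of the threshold, 15 lost and 7 gained a call, and 7 changed sign. None of the 9 comparisons past the threshold changed sign, and each value that did was past the threshold neither before nor after. The cause of these changes was not tested.

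The density ratio of V to X, 1.37, passed with 500 kb windows (1.37), in the stronger 50% of the list (1.55) and in the replicate lists alone (1.71 to 1.81). The excess of the centre-to-end ratio of V passed against X with 500 kb windows (1.67), and in the list of replicate 2 alone against X (range over replicate lists 1.84 to 1.97) and III (1.46 to 1.66). The right-to-left density ratio, 1.01, was 0.884 with a narrower centre and 0.914 to 1.24 in the replicate lists. The share in both replicates lost its call against III under a 50% overlap (-5.32 points) and in the stronger 50% of the list (-8.86), and against X in the stronger 50% (8.04), as did the share in neither against X (-1.70). Above 2000 bp, the width difference was 0.430 points against II, with the sign changed, and -0.826 against X, where the call was lost; the replicate lists gave -9.60 to -9.59 against X. The difference in close neighbours was -1.99 to 1.77 points against II, -1.94 to 1.89 against III and -3.24 to 3.21 against IV in the replicate lists. For the strongest peaks, the strongest 10% gave -1.96, -2.48 and -2.25 points against II, III and IV, and the replicate lists gave -3.31 to -1.48, -2.07 to -0.899, -3.27 to -0.511 and, against X, -1.07 to 5.18. No paired analysis was possible because only ChIP lists were analysed here, and the numbers they carry recur only among input libraries. Depth is unknown, so a peak absent from a list may be below detection.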
